A study of Mus musculus with 8 samples.

Results

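The 37 genes described here are a list of type I interferon response genes, chosen by gene symbol as transcripts that interferon alpha and beta are known to switch on. All 37 were found on the arrays by symbol, through 47 probes, among the 23231 features tested. For each gene the probe with the highest mean signal stood for it, and all 37 of these probes were well above background on all 8 arrays. RNA came from sorted bone marrow cells of mice of age 6 weeks and of mixed strain (B6/CBA and others), with no treatment after the sort. KSL cells, positive for c-Kit and Sca-1 and without lineage markers, hold the blood stem and progenitor cells, and Gr cells, positive for Gr-1 and Mac-1, hold granulocytes and related myeloid cells. Both were sorted from controls and from mice of the Vav-Etv2 genotype, where Cre under the Vav promoter of blood cells switches on transgenic Etv2, a factor of the ETS family that acts in early blood and vessel development. That gave 4 groups of 2 arrays each: KSL control, KSL Vav-Etv2, Gr control and Gr Vav-Etv2. Whether the 2 arrays of a group came from separate mice or pools is not stated in the labels, and p-values here reflect no more than the spread between the arrays, which may be technical.

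Type I interferons bind a receptor of Ifnar1 and Ifnar2, whose kinases Jak1 and Tyk2 activate Stat2. Stat2 and Irf9 act in a complex that binds the interferon-stimulated response element (ISRE), while another element, called GAS, serves mainly the response to interferon gamma. The genes so induced include sensors of foreign RNA, proteins that block viral growth, GTPases, parts of antigen processing, and Usp18, which shuts the receptor down again. In bone marrow, interferon can drive resting stem cells into division, and stem and mature cells are known to keep different sets of these genes on without infection.

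The promoters of 7 members are shown. They carry letters that match this element, except Ifi44, whose levels differed most between the cell types. Each line is the stretch from 160 to 1 base before the transcript start, 5′ to 3′ on the gene's own strand, from RefSeq on build GRCm38.p6, with capitals marking the ISRE letters searched, TTTCNNTTTC, on either strand.
Ifit3: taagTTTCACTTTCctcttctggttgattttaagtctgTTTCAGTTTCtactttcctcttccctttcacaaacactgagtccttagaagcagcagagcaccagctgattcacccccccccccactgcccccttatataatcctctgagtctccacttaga
Oas3: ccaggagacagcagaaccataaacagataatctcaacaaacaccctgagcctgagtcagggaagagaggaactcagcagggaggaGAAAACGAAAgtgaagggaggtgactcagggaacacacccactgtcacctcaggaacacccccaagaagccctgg
Oas1a: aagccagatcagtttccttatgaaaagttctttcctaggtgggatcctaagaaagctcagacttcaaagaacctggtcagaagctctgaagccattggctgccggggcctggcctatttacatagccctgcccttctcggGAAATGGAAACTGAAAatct
Rsad2: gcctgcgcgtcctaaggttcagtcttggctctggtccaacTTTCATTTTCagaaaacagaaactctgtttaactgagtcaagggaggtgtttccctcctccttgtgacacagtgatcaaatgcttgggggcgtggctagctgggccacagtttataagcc
Bst2: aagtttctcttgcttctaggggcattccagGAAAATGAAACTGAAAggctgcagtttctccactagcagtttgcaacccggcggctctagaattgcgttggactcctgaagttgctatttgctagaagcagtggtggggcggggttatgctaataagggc
Irgm1: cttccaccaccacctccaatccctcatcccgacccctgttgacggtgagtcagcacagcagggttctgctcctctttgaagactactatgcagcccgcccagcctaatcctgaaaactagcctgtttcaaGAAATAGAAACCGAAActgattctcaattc
Ifi44: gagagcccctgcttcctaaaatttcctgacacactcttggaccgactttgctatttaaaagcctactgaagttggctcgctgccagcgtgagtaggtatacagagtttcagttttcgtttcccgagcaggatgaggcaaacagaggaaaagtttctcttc
The Ifit3 stretch lies at chr19:34583369-34583528 on the plus strand. The others lie on the minus strand: Oas3 at chr5:120777660-120777819, Oas1a at chr5:120907526-120907685, Rsad2 at chr12:26456453-26456612, Bst2 at chr8:71537473-71537632, Irgm1 at chr11:48871421-48871580 and Ifi44 at chr3:151749911-151750070. In Oas1a, Bst2 and Irgm1 a pair of overlapping matches on the other strand fills 1 capital run, Ifit3 has 2 separate matches, and Oas3 and Rsad2 have 1 each. No full match stood in the Ifi44 stretch, where tttcagtttt differs from the letters searched in its last base only.

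Across the series, the 75th percentile of the array signal lay between 136 and 300.2, and 47.7% to 55.48% of probes were well above background. All arrays shared 1 slide and 1 scan. The KSL arrays occupied slide row 1 and the Gr arrays slide row 2, so a row effect and a cell type effect cannot be told apart. Etv2 itself was at -4.37 and -4.73 (log2, relative to the array's 75th percentile, as all levels below) in KSL controls and at 0.19 and -1.24 in KSL Vav-Etv2 cells, but the array labelled Gr control 2 read -0.54, against -4.48 in Gr control 1 and -0.55 and -1.29 in Gr Vav-Etv2 cells. Every direction drawn from the label of Gr control 2 rests on that label, and results with and without this array are given. The sort markers matched the labels in part. Of 10 stem and progenitor markers, 9 were higher in control KSL than in control Gr cells by limma, Kit among them, while Ly6a, which encodes Sca-1 and is itself an interferon-induced gene, read 3.65 and 3.59 in KSL controls and 6.18 and 4.48 in Gr controls. Neutrophil markers summed to 10.74 and 10.66 in KSL controls and to 13.6 and 12.4 in Gr controls (log2 of the summed relative signal), with all 11 well above background on the KSL arrays too. Xist, the RNA of the inactive X chromosome, stood between 2.12 and 2.69 on the KSL arrays and at 0.27 and 0.35 on the Gr arrays of replicate 1, and it was at -7.10 and -6.82 on those of replicate 2, where the Y-linked Ddx3y stood at 1.39 and 1.36. The 2 KSL control arrays lay closest together, with a median absolute difference of 0.10 over the members, against 0.30 in KSL Vav-Etv2, 0.48 in Gr control and 0.59 in Gr Vav-Etv2 cells.

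The widest differences among the interferon response genes lay between the cell types. Control KSL cells carried less signal than control Gr cells for 28 of the 37 members, with Ifit3, Oas3, Oas2, Rsad2, Irf7 and Cmpk2 furthest down, and more for 9, of which Ifi44, Bst2 and Psmb8 passed the test. By limma with Benjamini-Hochberg adjustment over all 23231 features, 14 members were lower and 3 higher in control KSL cells, where 18.5% and 16.2% of all features were called lower and higher (34.7% in either direction). The median log2 difference over the members was -1.15, beside -0.13 over all features. On 26 members both KSL control arrays lay below both Gr control arrays (40.5% of all features did so), and on 6 both lay above (34.8%). In sorted bulk samples, fewer cells of a type and less RNA per cell cannot be told apart.

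**Figure D1:**
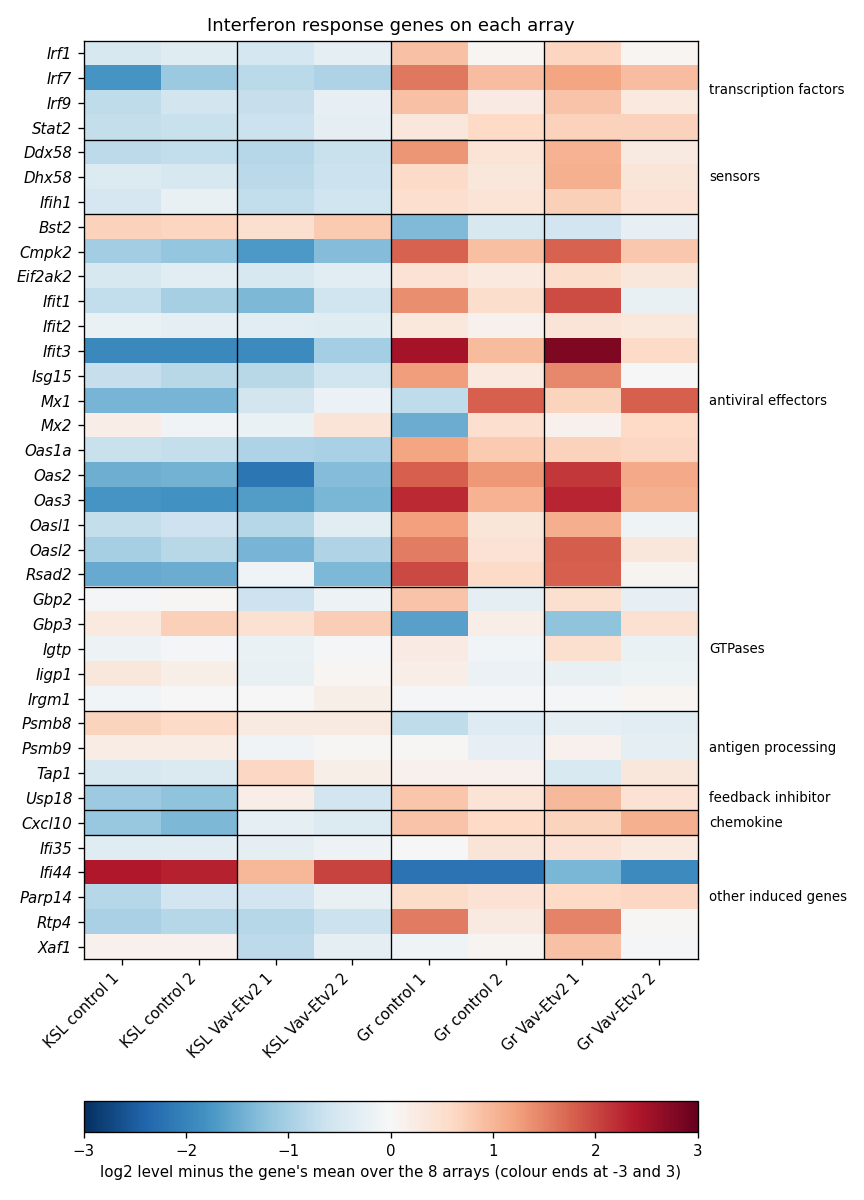
Level of each of the 37 members (rows, grouped by role) on each of the 8 arrays (columns), as the log2 level minus that gene's mean over the arrays, with red above and blue below the mean. Most rows are blue on the 4 KSL arrays and red on the 4 Gr arrays, and Ifi44 runs the other way. Its levels before the mean was taken off were 1.32 in KSL control 1 and -3.29 in Gr control 1.

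Among the 4 transcription factors, all differences ran toward lower levels in control KSL cells and 3 were called. Irf7, which drives interferon alpha genes and amplifies the response (probe on mm9 chromosome 7, 148450664 to 148451014), stood at -0.39 and 0.26 in KSL controls, 0.58 and 0.45 in KSL Vav-Etv2, 2.95 and 2.31 in Gr controls, and 2.57 and 2.30 in Gr Vav-Etv2 cells. Every Gr array lay above every KSL array for this gene. The control difference was 6.49-fold (log2 -2.70, SE 0.36, n = 2 and 2, limma adjusted p = 0.00369). Stat2 and Irf9, of the ISRE-binding complex, were also lower in control KSL cells, by 1.15 and 1.22 on the log2 scale (limma adjusted p = 0.0231 and 0.0417). Without a filter on dim probes both missed the threshold (0.0626 and 0.0879), and Irf9 did under quantile normalization too (-0.76, limma adjusted p = 0.102). Stat2 read 2.11 and 2.15 in KSL controls against 3.15 and 3.40 in Gr controls, and Irf9 3.61 and 3.82 against 5.24 and 4.62. Irf1, a factor that interferon gamma also induces, differed by -0.89 (95% interval -1.79 to 0.01) and was not called.

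The 3 cytoplasmic sensors of foreign RNA had lower means in control KSL cells, and 1 passed the test. Ddx58, which encodes RIG-I, stood at 2.64 and 2.69 in KSL controls, 2.56 and 2.75 in KSL Vav-Etv2, 4.74 and 3.83 in Gr controls, and 4.47 and 3.69 in Gr Vav-Etv2 cells. The control difference was -1.62 (limma adjusted p = 0.0262), or 0.0514 without a filter on dim probes. A dimmer Ddx58 probe gave -0.76 (limma adjusted p = 0.337), and the mean over both probes -1.19 (0.0941). Ifih1, which encodes MDA5, differed by -0.82 and Dhx58, the LGP2 gene, by -0.90, with adjusted p of 0.0584 and 0.0710 by limma.

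Of the 15 antiviral effectors, 7 were called lower and 1 higher in control KSL cells, and their median difference was -1.83. The oligoadenylate synthetases make the messenger that turns on RNase L. Oas3 (mm9 chromosome 5, 121203598 to 121203657) stood at 0.15 and 0.10 in KSL controls, 0.23 and 0.55 in KSL Vav-Etv2, 4.16 and 2.95 in Gr controls, and 4.20 and 2.99 in Gr Vav-Etv2 cells. The 4 KSL arrays kept within a narrow band far under the Gr arrays, while Gr arrays of replicate 1 exceeded those of replicate 2 in both genotypes. The control difference of Oas3 was 10.8-fold (log2 -3.43, SE 0.54, n = 2 and 2, limma adjusted p = 0.00558).

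Oas2 (mm9 chromosome 5, 121180343 to 121180402) read 2.52 and 2.55 in KSL controls, 1.81 and 2.67 in KSL Vav-Etv2, 5.77 and 5.29 in Gr controls, and 6.11 and 5.12 in Gr Vav-Etv2 cells, a control difference of 7.97-fold (log2 -2.99, SE 0.46, limma adjusted p = 0.00527). Oas1a (mm9 chromosome 5, 121346735 to 121346794) read 4.40 and 4.36, 4.15 and 4.09, 6.26 and 5.86, and 5.77 and 5.68 in the same order of groups, a control difference of 3.20-fold (log2 -1.68, SE 0.28, limma adjusted p = 0.00658). In both genes each KSL array lay below each Gr array. A further Oas1a probe gave -1.64, although signal of Oas1a and its close copies, Oas1g among them, may be shared between probes. Oasl2, a synthetase-like member, differed by -1.90 (limma adjusted p = 0.0442), and Oasl1, which holds back Irf7 translation, by -1.47 without passing the test (0.0603).

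Ifit3, of a family that binds foreign RNA ends, had the widest fall among the members (mm9 chromosome 19, 34663105 to 34663164). It stood at -0.65 and -0.64 in KSL controls, -0.62 and 0.28 in KSL Vav-Etv2, 3.79 and 2.25 in Gr controls, and 4.09 and 1.86 in Gr Vav-Etv2 cells. The KSL arrays were all below the Gr arrays, whose replicates differed from each other by 1.54 and 2.23. The control difference of Ifit3, which has a near-identical neighbour gene, Ifit3b, was 12.7-fold (log2 -3.67, SE 0.82, limma adjusted p = 0.0168). Ifit1 differed by -1.83 and Ifit2 by -0.44, and neither was called (limma adjusted p = 0.0882 and 0.218).

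Rsad2 encodes viperin, and its neighbour Cmpk2 encodes a nucleotide kinase that works with it. Cmpk2 (mm9 chromosome 12, 27164119 to 27164178) read 1.44 and 1.31 in KSL controls, 0.75 and 1.16 in KSL Vav-Etv2, 4.24 and 3.37 in Gr controls, and 4.24 and 3.27 in Gr Vav-Etv2 cells. The control difference was 5.38-fold (log2 -2.43, SE 0.45, limma adjusted p = 0.00950). Rsad2 read 0.17 and 0.19 in KSL controls and 3.67 and 2.26 in Gr controls, a difference of -2.79 (limma adjusted p = 0.0279). Both genes were thus lower on all KSL control arrays than on any Gr control array.

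Bst2, which encodes the tether of budding virus and marks plasmacytoid dendritic cells, was the 1 effector called higher in control KSL cells. It stood at 4.35 and 4.30 in KSL controls, 4.13 and 4.43 in KSL Vav-Etv2, 2.32 and 3.18 in Gr controls, and 3.09 and 3.40 in Gr Vav-Etv2 cells. The groups did not overlap, and the control difference was 2.98-fold (log2 1.57, SE 0.36, limma adjusted p = 0.0188), but with scaling on the array median it was 1.41 with an adjusted p of 0.0501. Of 10 plasmacytoid dendritic cell markers, 4 were higher and 1 lower in control KSL cells by limma (median 1.63), the higher ones being Cox6a2 (5.71), Ly6d (4.28), Tcf4 (3.20) and Ccr9 (2.32). Siglech carried most of their summed signal, at 7.44 and 7.33 in KSL controls and 8.24 and 7.48 in Gr controls, and the part of these cells in the Bst2 difference was not tested. Isg15, the ubiquitin-like modifier, differed by -1.54 without passing (limma adjusted p = 0.0669), although its other, dimmer probe gave -1.69 with an adjusted p of 0.0401. Mx1, Mx2 and Eif2ak2, the kinase PKR, were not called either, with differences of -1.92, 0.54 and -0.75.

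Of the 5 GTPases, a class known to act on the membranes around intracellular pathogens, limma called 0, and 0 had an unadjusted p under 0.05 (median difference 0.0023, range -0.30 to 1.22). Irgm1, a regulator of this family, read 2.77 and 2.86 in KSL controls, 2.87 and 3.04 in KSL Vav-Etv2, 2.83 and 2.80 in Gr controls, and 2.83 and 2.91 in Gr Vav-Etv2 cells. Its control levels overlapped between the cell types, both KSL Vav-Etv2 arrays lay just above both KSL controls, and the 95% interval of the control difference ran from -0.62 to 0.62. Igtp gave -0.19, Gbp2 -0.30 and Iigp1 0.24. Gbp3 gave 1.22, with an interval from -0.53 to 2.96, as Gr control 1 read 0.50 and Gr control 2 read 2.33. The other Iigp1 probe differed by 3.18 but was not well above background on any Gr array.

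Of the 3 antigen processing genes 1 was called, toward higher levels in control KSL cells. Psmb8, a subunit of the immunoproteasome, stood at 5.95 and 5.85 in KSL controls, 5.57 and 5.56 in KSL Vav-Etv2, 4.52 and 4.90 in Gr controls, and 5.02 and 4.95 in Gr Vav-Etv2 cells. It was 2.29-fold higher in control KSL cells (log2 1.19, SE 0.28, limma adjusted p = 0.0186), and under scaling on the array median the difference was 1.03 with an adjusted p of 0.0577. Psmb9, its partner subunit, differed by 0.32 and Tap1, the peptide transporter, by -0.60, neither past the threshold.

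Usp18 removes Isg15 from proteins and blocks the interferon receptor. It stood (mm9 chromosome 6, 121220874 to 121220933) at 0.74 and 0.61 in KSL controls, 2.02 and 1.28 in KSL Vav-Etv2, 2.67 and 2.24 in Gr controls, and 2.79 and 2.27 in Gr Vav-Etv2 cells. KSL controls were the lowest group, at 3.42-fold below Gr controls (log2 -1.77, SE 0.37, limma adjusted p = 0.0141). Cxcl10, a chemokine for T cells (mm9 chromosome 5, 92775781 to 92775840), stood at -0.25 and -0.46 in KSL controls, 0.62 and 0.47 in KSL Vav-Etv2, 1.74 and 1.49 in Gr controls, and 1.56 and 1.97 in Gr Vav-Etv2 cells, 3.91-fold lower in KSL than in Gr controls (log2 -1.97, SE 0.29, limma adjusted p = 0.00487). The groups of both genes did not overlap between the cell types. A dimmer Cxcl10 probe, well above background on 5 of the 8 arrays, gave 0.89, and with the mean over both probes the difference was -0.54 (limma adjusted p = 0.143).

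Ifi44, a gene of incompletely known function, showed the widest difference of all members and in the opposite direction (mm9 chromosome 3, 151394035 to 151394094). It stood at 1.32 and 1.23 in KSL controls, -0.08 and 0.94 in KSL Vav-Etv2, -3.29 and -3.28 in Gr controls, and -2.44 and -2.99 in Gr Vav-Etv2 cells. All KSL arrays were far above all Gr arrays. The control difference was 23.6-fold (log2 4.56, SE 0.40, limma adjusted p = 0.00126). With normexp background correction it was 7.15-fold (log2 2.84, limma adjusted p = 0.00105). Of the 4 other induced genes, Parp14, an ADP-ribosyltransferase, was lower in control KSL cells by 1.20 on the log2 scale (limma adjusted p = 0.0202). Rtp4, Ifi35 and Xaf1 gave -1.83, -0.55 and 0.16 and were not called.

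**Figure D2:**
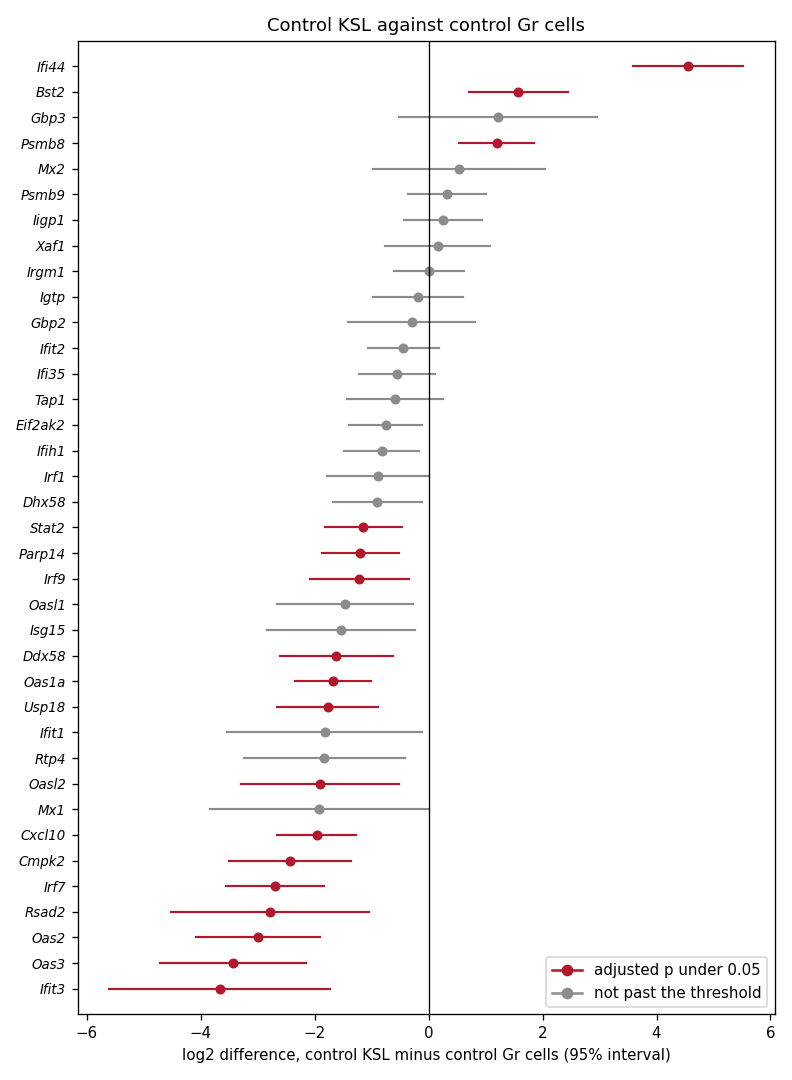
Log2 difference between control KSL and control Gr cells for each of the 37 members (rows), as a point with limma's unadjusted 95% interval, in red where the adjusted p was under 0.05. Differences run from -3.67 for Ifit3 to 4.56 for Ifi44, with 14 red points left of 0 and 3 right of it.

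The number of calls moved with single arrays and with the filter. Without a filter on dim probes, Irf9, Stat2, Ddx58, Oasl2, Parp14 and Psmb8 were not called (limma adjusted p from 0.0514 to 0.0879), and under quantile normalization Irf9 and Oasl2 were not. With any 1 KSL array or Gr control 1 left out, fewer than 17 members were called, and fewer of all features too. Without the array labelled Gr control 2, more of both were called. Such fits leave 1 array in a group, so their counts are not given. All 17 kept their direction whichever array was left out, and Irf7, Oas2, Oas3, Cxcl10 and Ifi44 were called each time. Set against Gr control 1 alone, the members' median difference of the KSL control mean was -1.03, beside -0.20 over all features. Against Gr control 2 alone it was -0.90, beside -0.08. The KSL control mean was lower for 29 members against the first, by over 1 log2 for 20. Against the second it was lower for 28 and by over 1 for 18. The same shares over all features are not given here, so these counts do not set the members apart.

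The comparison of Vav-Etv2 KSL with Vav-Etv2 Gr cells called 13 members lower and 1 higher by limma. Of all features, 13.8% and 10.4% were called lower and higher. Its group means share no array with those of the controls. Both comparisons used 1 estimate of each gene's spread over all 8 arrays, so their calls are not independent. The median was -1.03 over the members and -0.10 over all features. Cells of both genotypes shared 11 of the lower calls, among them Irf7, Stat2, Ddx58, Cxcl10 and the 3 Oas genes. The same overlap over all features is not given here, so this count does not set the members apart. The groups did not overlap, with KSL lower, for 26 members (37.6% of all features) and, with KSL higher, for 4 (32.1%). Ifi44 was again higher in KSL cells (8.88-fold, log2 3.15, SE 0.40, limma adjusted p = 0.00429; 3.82-fold with normexp, 0.00698). Oas2 was 10.4-fold lower (log2 -3.37, SE 0.46, adjusted p = 0.00477 by limma), Cmpk2 6.97-fold (-2.80, 0.00758), Oas3 9.20-fold (-3.20, 0.00846), Oas1a 3.05-fold (-1.61, 0.00929) and Irf7 3.78-fold (-1.92, 0.0127). The sensors Ifih1 and Dhx58 were called lower here, at -1.25 and -1.44 (limma adjusted p = 0.0213 and 0.0225), though not without a filter on dim probes (0.0592 and 0.0531), nor was Ifih1 with the mean over its probes (-0.88, 0.0926). With the mean over probes, Cxcl10 was at -0.40 and Ddx58 at -1.34, and neither was called (limma adjusted p = 0.278 and 0.0825). Under quantile normalization Ddx58, Stat2 and Parp14 were not called (limma adjusted p = 0.0665, 0.0504 and 0.0847). Parp14 was not called under scaling on the array median either (0.0601). Irf9, Rsad2 and Usp18, called lower in controls, were not called in Vav-Etv2 cells. Nor were Bst2 and Psmb8, called higher in controls (1.04 and 0.58 here, limma adjusted p = 0.0800 and 0.160). Without a filter on dim probes, 8 members lost their call, namely Ifih1, Dhx58, Ddx58, Stat2, Cxcl10, Ifit3, Oasl2 and Parp14 (limma adjusted p from 0.0519 to 0.112). The test of the difference between the genotypes, which is also the test of the difference between the transgene's effects given below, called none of these. With any 1 KSL array or Gr Vav-Etv2 1 left out, fewer members and fewer of all features were called. All 14 directions were kept whichever array was left out. Cmpk2, Ifi44 and Oas2 were called each time.

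Within KSL cells, the transgene went with no called change in any interferon response gene. The members' median difference between Vav-Etv2 and control was 0.02, beside 0.0031 over all features, with 19 members above 0 and 18 below. By limma 0 of 37 passed the adjusted threshold (0.0172% of all features did, 0.0043% toward higher and 0.0129% toward lower levels), and 3 members, Cxcl10, Usp18 and Tap1, had an unadjusted p under 0.05, each toward higher levels, beside 7.43% of all features. Both Vav-Etv2 arrays lay above both controls for 12 members, where 26.1% of all features did so, and below for 11, where 25.4% did.

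The member with the smallest p in KSL cells was Cxcl10. Its Vav-Etv2 arrays read 0.62 and 0.47 against -0.25 and -0.46 in controls, a difference of 0.90 (SE 0.29, n = 2 and 2, 95% interval 0.20 to 1.59, limma adjusted p = 0.533). Usp18 differed by 0.97 (SE 0.37, interval 0.08 to 1.86, adjusted p = 0.630 by limma). In both genes the arrays of the genotypes did not overlap, and the KSL Vav-Etv2 levels lay between those of KSL controls and Gr cells.

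Tap1 read 2.53 and 2.09 in KSL Vav-Etv2 cells and 1.43 and 1.47 in KSL controls, a difference of 0.86 (SE 0.35, interval 0.02 to 1.70, limma adjusted p = 0.664). Ifi44 and Xaf1 had the next smallest p, toward lower levels, at -0.84 (SE 0.40, adjusted p = 0.783) and -0.66 (SE 0.39, adjusted p = 0.881) by limma. Xaf1, a gene of the apoptosis pathway, stood at 1.52 and 2.04 in KSL Vav-Etv2 and 2.44 and 2.44 in KSL controls, while its other probe differed by 0.65, so the 2 probes had opposite signs. Mx1 had the largest value, 1.04, with levels of 0.45 and 0.82 against -0.41 and -0.40 in controls and an interval from -0.87 to 2.95. The 4 transcription factors gave 0.02 to 0.58, the 3 sensors -0.30 to -0.01 and the 5 GTPases -0.37 to 0.14, and none of these passed the test.

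The 2 KSL Vav-Etv2 arrays did not stand alike. Replicate 1 lay below the control mean for most members, with a median of -0.09 and 13 of 37 above it, and replicate 2 had a median of 0.16 and 26 of 37 above. Rsad2 read 1.56 in replicate 1 and 0.33 in replicate 2, and Oas2 1.81 and 2.67. The same arrays differed in their marker sums. Neutrophil markers summed to 7.82 in replicate 1 and 10.8 in replicate 2, against 10.74 and 10.66 in the controls, and 10 of 11 had negative differences. B cell markers summed to 6.84 and 7.24 against 5.30 and 5.34 in controls (10 of 10 positive), endothelial markers to 8.69 and 6.99 against 6.29 and 6.24 (8 of 9 positive), and monocyte and macrophage markers to 6.45 and 6.82 against 5.72 and 5.88 (11 of 11 positive). By limma 0 markers of these lists were called, and 4 B cell, 5 endothelial, 2 monocyte and macrophage and 0 neutrophil markers had an unadjusted p under 0.05, each toward higher levels. Of the plasmacytoid dendritic cell markers 7 of 10 had negative differences, with 1 higher (Tlr7, 1.32) and 2 lower (Lair1, -1.13, among them) at an unadjusted p under 0.05. Siglech stood at 7.30 and 7.40 against 7.44 and 7.33 in controls. Stem and progenitor markers were negative in 10 of 10, and 3 were lower at an unadjusted p under 0.05, Hlf (-3.03) and Procr (-2.12) among them. T and NK cell markers were negative in 9 of 10, and 2 were lower at that level. None of either list was called by limma. The part of these cells in the members' differences was not tested.

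Within Gr cells the members' median difference was 0.06, beside -0.01 over all features, with 23 above 0 and 14 below. By limma 0 of 37 were called, where 0.00861% of all features were, and 0 had an unadjusted p under 0.05, beside 1.27% of all features. Without the array labelled Gr control 2, as without Gr control 1, 0 members were called. The 5 members with the smallest p were Ifi44 (log2 difference 0.57, SE 0.40), Bst2 (0.49, SE 0.36), Mx2 (0.85, SE 0.64), Oas1a (-0.33, SE 0.28) and Xaf1 (0.45, SE 0.39), each with a limma adjusted p of 1.

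Both Gr Vav-Etv2 arrays lay above both controls for Ifi44, Ifit2, Parp14, Psmb8 and Stat2, where 5.85% of all features did so, and below for Oas1a, where 5.78% did. Mx2, a dynamin-like GTPase, read 0.12 and 0.61 in Gr Vav-Etv2 cells and -1.48 and 0.50 in Gr controls, an interval of the difference from -0.66 to 2.37. The low array was Gr control 1, and without it the difference was -0.14. Xaf1 read 3.20 and 2.28 in Gr Vav-Etv2 against 2.17 and 2.40 in controls, and without Gr Vav-Etv2 1 its difference was -0.00945.

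**Figure D3:**
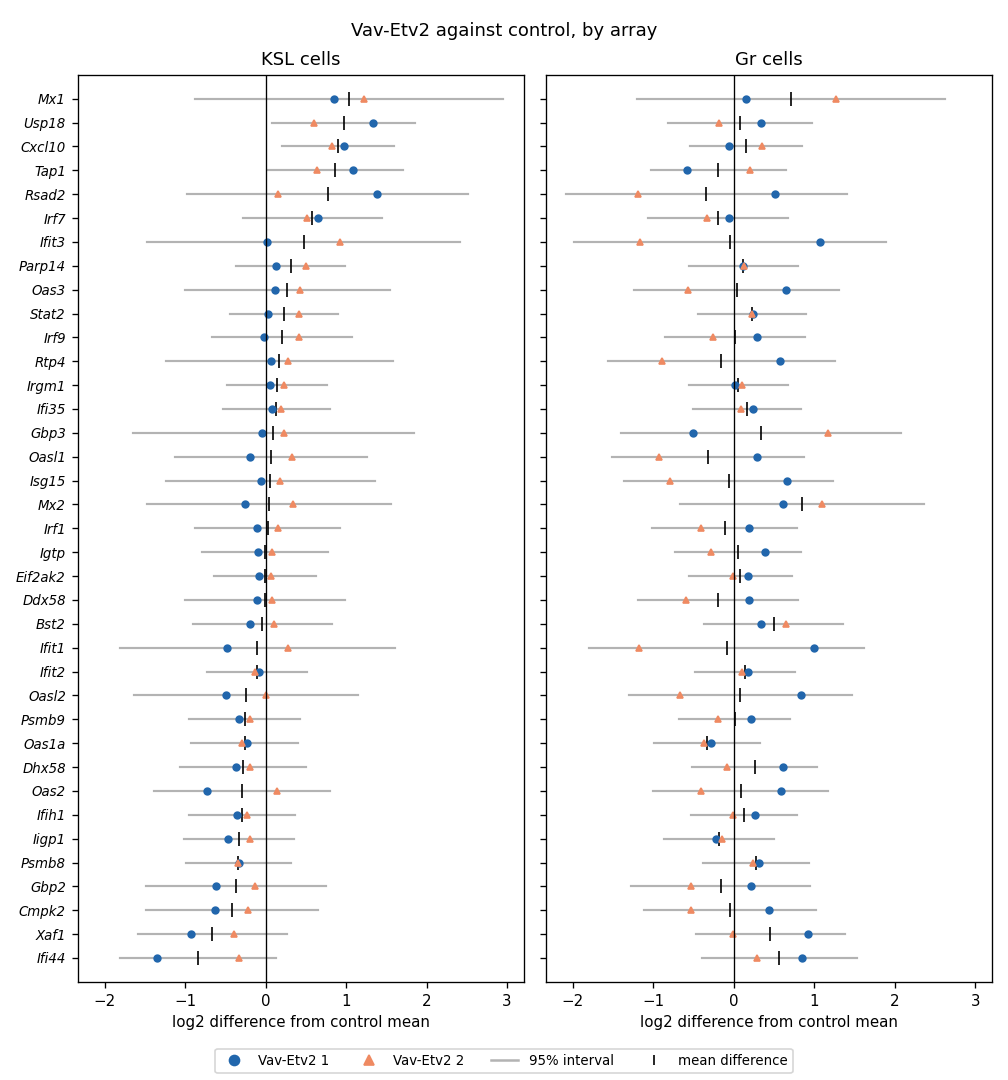
Log2 difference of each Vav-Etv2 array from the control mean in KSL (left) and Gr cells (right) for the 37 members, in the same row order, with the mean difference as a tick and limma's unadjusted 95% interval as a grey bar. In KSL cells the means run from -0.84 for Ifi44 to 1.04 for Mx1, and in Gr cells the circles (replicate 1) and triangles (replicate 2) of many members lie on opposite sides of 0.

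The test of the difference between the effects in KSL and Gr cells called 0 members by limma, where 0.0043% of all features were called, and 1 member, Ifi44, had an unadjusted p under 0.05, beside 3.90% of all features. Ifi44 differed by -0.84 in KSL and 0.57 in Gr cells, an effect difference of -1.41 (SE 0.57, 95% interval -2.77 to -0.05, limma adjusted p = 1.00). Xaf1 gave -1.11 (SE 0.55), Tap1 1.06 (SE 0.50), Usp18 0.89 (SE 0.53) and Cxcl10 0.75 (SE 0.41), with adjusted p of 1.00 by limma in each case. Tap1 had opposite signs in the cell types, as Gr Vav-Etv2 arrays read 1.46 and 2.25 and Gr controls 2.06 and 2.04.

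Levels of the members differed between Gr arrays of the same genotype. On 13 members replicate 1 exceeded replicate 2 by over 0.5 log2 in both genotypes, where 22.3% of all features did, and on 2, Gbp3 and Mx1, replicate 2 exceeded replicate 1 in both, where 18% did. The 13 were Cmpk2, Ddx58, Gbp2, Ifit1, Ifit3, Irf1, Irf9, Isg15, Oas3, Oasl1, Oasl2, Rsad2 and Rtp4. Rtp4, a chaperone of receptors, read 5.99 and 4.69 in the controls, then 5.92 and 4.45 with the transgene. Isg15 read 5.33 and 4.37, then 5.51 and 4.06. Mx1 read 0.24 and 2.78 in the controls, then 1.66 and 2.78 with the transgene, so its replicate 2 arrays were the high ones.

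Over all members the median of replicate 1 minus replicate 2 was 0.32 for the controls and 0.53 for the Vav-Etv2 pair, against 0.14 and 0.10 over all features. The same arrays differed in Xist and Ddx3y, as given above. They differed in monocyte and macrophage markers, which summed to 7.19 and 8.06 in replicates 1 and to 8.85 and 9.14 in replicates 2, and in neutrophil markers, at 13.6 and 13.4 against 12.4 and 12.4. All 11 neutrophil markers were higher in replicate 1 in both genotypes, as were all 10 B cell and 6 erythroid markers, while 7 of 11 monocyte and macrophage markers were higher in replicate 2. Stem and progenitor markers had no common direction, with 6 of 10 higher in Gr control 2 and 5 of 10 in Gr Vav-Etv2 2. Among these Ly6a read 6.18 and 4.48 and Cd34 0.25 and 1.77 in the controls, and Mecom was not well above background on any Gr array. Whether sex, cell makeup or array signal had a part in the members' differences was not tested.

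**Figure D4:**
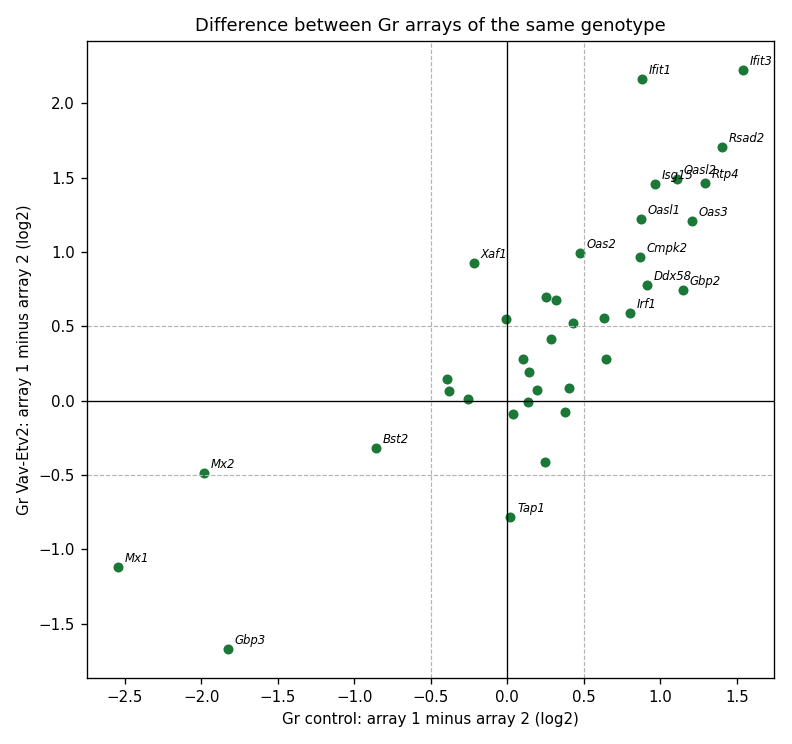
Replicate 1 minus replicate 2 (log2) for the Gr control pair (x axis) and the Gr Vav-Etv2 pair (y axis), 1 point per member, with dashed lines at 0.5 on either side of 0 and names where a difference passed 0.75. Ifit3 lies at 1.54 and 2.23 in the upper right, and Gbp3 (-1.83 and -1.67) and Mx1 (-2.55 and -1.12) in the lower left.

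Genes upstream of the members were read from 4 lists of the pathway, and a further list held other interferon-stimulated genes. Vav-Etv2 against control called 0 genes of any list in KSL and in Gr cells by limma, with list medians from -0.18 to 0.12 in KSL and from 0.01 to 0.13 in Gr cells. Of the 98 genes measured, 4 toward higher and 3 toward lower levels had an unadjusted p under 0.05 in KSL cells, and 1 and 1 in Gr cells. Of all features, 7.43% in KSL and 1.27% in Gr cells did so in either direction, so these counts do not set the lists apart. The smallest p in KSL cells were those of Ifng, at -1.09 and -0.97 in controls and -3.13 and -2.75 in Vav-Etv2 cells (difference -1.91, SE 0.45, limma adjusted p = 0.309), Gbp6 (-1.65, 0.409) and Tlr7 (1.32, 0.529). Between control KSL and control Gr cells, where 18.5% of all features were called lower and 16.2% higher, all 11 receptors and kinases had negative differences and 5 were called lower (median -1.06). Ifnar2, a chain of the type I receptor, read 3.16 and 3.35 in KSL controls against 4.45 and 4.03 in Gr controls, a difference of -0.99 (SE 0.29, limma adjusted p = 0.0409). Ifnlr1, the lambda interferon receptor chain, was the furthest down, at -5.43 (SE 0.85, limma adjusted p = 0.00569). The interferon gamma receptor chains Ifngr1 and Ifngr2 were also called lower, at -1.02 and -2.50 (limma adjusted p = 0.0303 and 0.00519).

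Of 14 measured inducers and adaptors, 6 were lower in control KSL cells and 0 higher, with a median of -0.95. They were Myd88, the adaptor of Toll-like receptors (-2.59, SE 0.28, limma adjusted p = 0.00207), the nucleic acid sensor Zbp1 (-2.10), the kinase Tbk1 (-1.04), the ligase Trim25 (-1.09), Irf5 (-2.39) and the RNA receptor Tlr7 (-1.51). Of 9 feedback inhibitors 2 were lower, Samhd1, which depletes nucleotides (-2.37, limma adjusted p = 0.00367), and the phosphatase Ptpn6 (-1.73, 0.0138). Of 7 measured interferon ligands, Ifna5 and Ifnab were lower (-2.65 and -1.19) and Ifng higher (1.71) in control KSL cells (limma adjusted p = 0.0163, 0.0284 and 0.0285). Their levels were low, with Ifna5 at -5.53 and -4.99 in KSL controls and well above background on 5 of the 8 arrays.

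Among 57 other interferon-stimulated genes, 14 were lower and 3 higher in control KSL cells, a share of lower calls (24.6%) not far from the 18.5% over all features, with a median of -0.42. The Schlafen genes Slfn1 and Slfn2 had the widest falls, of -5.54 and -4.41 (limma adjusted p = 0.0119 and 0.00956), and Ifi27l2a and Znfx1 differed by -2.84 and -2.61 (0.00285 and 0.00192). The 3 higher genes were the GTPase genes Gbp4 (3.48, limma adjusted p = 0.00191) and Ifi47 (1.15, 0.0456) and Lgals3bp (2.49, 0.00483). The Gbp4 levels were 0.12 and 0.50 in KSL controls and -3.47 and -2.88 in Gr controls, so its groups were well apart.

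RefSeq promoter windows, from 250 bases before to 50 after the start, were at hand for 29 of the 37 members. The ISRE letters TTTCNNTTTC stood on either strand in the windows of 16 of these 29 genes (55.2%), against 3.99% of 27018 genes with a window, and in 3.44% of 32841 windows. The GAS letters TTCNNNGAA stood in 8 (27.6%), against 9.55% of genes and 8.30% of windows. A match is a description of letters, not a site shown to be bound. Of the 24 ISRE matches, which may overlap each other, 21 lay before the start and 18 of these within 130 bases of it, and 7 genes held several. Isg15 held 3 overlapping ones.

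Both called and uncalled members held the letters. Among the 14 members lower in control KSL cells, 11 had a window and 7 of these held ISRE letters, namely Cxcl10, Ddx58, Ifit3, Oas1a, Oas3, Rsad2 and Stat2. Of the 3 higher members, all with a window, Bst2 held them and Ifi44 and Psmb8 did not. Of the 20 not called, 15 had a window and 8 held the letters, Irgm1 with its 2 overlapping matches and Gbp3 among them.

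**Figure D5:**
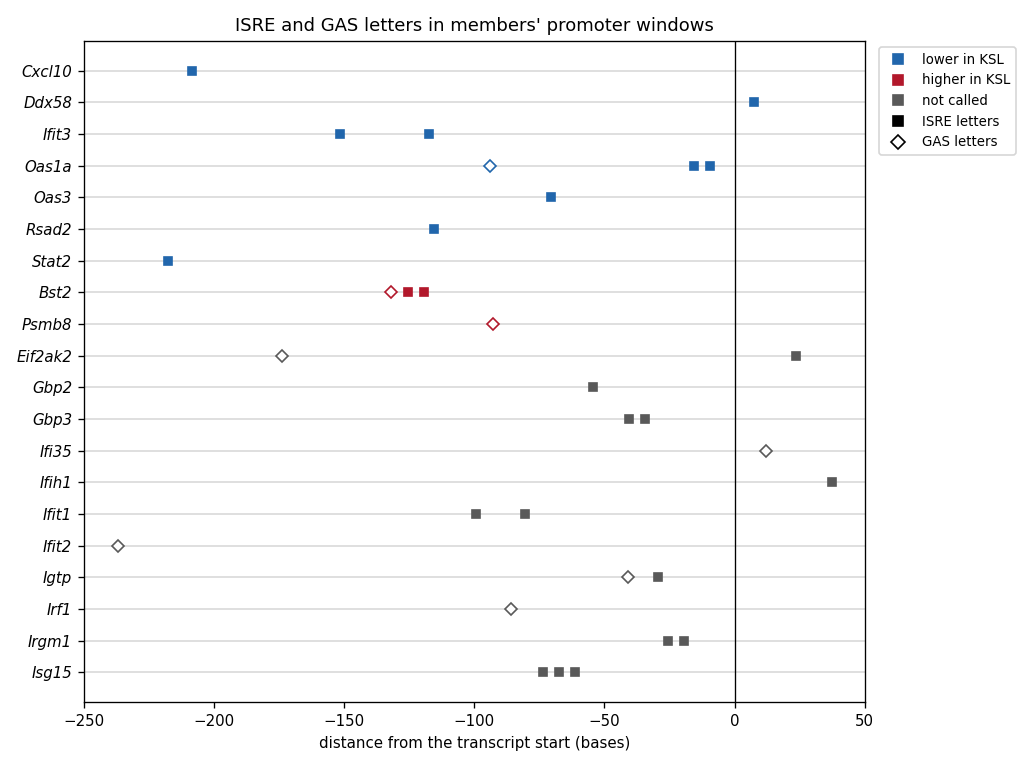
Position of ISRE letters (filled squares) and GAS letters (open diamonds) in the promoter windows of the members that hold either, as bases from the transcript start, coloured by the call between control KSL and control Gr cells. Most squares lie within 130 bases before the start, in genes lower in KSL cells, in Bst2 and in genes not called.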

How the data were processed

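Per the file headers, each deposited file is the output of Agilent Feature Extraction 10.7.3.1 for 1 array in 1 colour (Cy3), and its values are spot intensity; the submitters' processing notes give version 10.7. Probe coordinates are on mm9. The processed signal, an intensity that the authors' scanner software had corrected for background, was used. The deposited marks of outlier, saturated, control and well-above-background spots are other values, of 0 or 1. The deposited value table holds log2 values that were centred within each cell type (99.7% within 0.01 log2 of values recomputed here), so it served only as an alternative within a cell type.

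From 62976 spots, 55681 non-control probes were averaged over spots not marked as outliers, and 20 were left out. The log2 signal minus the 75th percentile of its array was the level used. Probes well above background on at least 2 of 8 arrays were kept, and the probe with the highest mean stood for a gene. Members were matched on the gene name in the files. A model with 1 coefficient per group was fitted with limma 3.58.1 (lmFit, eBayes) in R 4.3.3 with version 1.17.8 of data.table (4 residual and 2.77 prior degrees of freedom). A gene counted as called where the Benjamini-Hochberg adjusted p over all features was under 0.05, and intervals are unadjusted 95% intervals from the same model. On simulated data for Vav-Etv2 against control in KSL cells, over 23231 features, 34% of genes changed by 2 log2 and 96% of those changed by 4 were called.

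Full statistics are given for the 8 called members with the smallest adjusted p and the 5 with the smallest unadjusted p in each of 5 comparisons, and other values illustrate each role. Some, among them Ifit3, Bst2, Psmb8, Rsad2 and Rtp4, were picked with their values already seen. The members and the lists were chosen with earlier results of these data known. Alternatives covered background correction, scaling, the filter, a floor, the replicate number as a block, probe choice, the intensity trend, the arrays fitted, the authors' value table and leaving out each array.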

Additional observations from a re-analysis of the deposited data

How the results depend on the processing

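For Vav-Etv2 against control, 0 members were called in KSL cells, in Gr cells and in the test of their difference under every alternative that kept both arrays of each group compared. With each array left out the members' median ran from -0.09 to 0.16 in KSL and from -0.19 to 0.29 in Gr cells. The ends of these ranges are the medians of the single Vav-Etv2 arrays, so the ranges restate the spread between replicates. Between control KSL and control Gr cells, 17 members were called as reported, 11 without a filter on dim probes, and 5 to 21 with each array left out. In Vav-Etv2 cells the counts were 14 as reported, 6 without a filter and 3 to 16 with each array left out. The members' median between control cell types was -1.15, -0.76 under quantile normalization, and -1.16 to -0.90 with each array left out, while the median over all features moved from -0.13 to -0.08 under quantile normalization and -0.30 under scaling on the array median. In Gr cells, with each array left out, the Mx2 difference ran from -0.14 (without Gr control 1) to 1.84 and that of Xaf1 from -0.00945 (without Gr Vav-Etv2 1) to 0.92. The cause of these shifts was not tested, except that without the filter more features enter the adjustment and with an array left out fewer samples do.

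Same-numbered replicates share only a number in the labels. Their deviations from the group means correlated at 0.07 between KSL control and KSL Vav-Etv2 and at 0.66 between the Gr groups. With a replicate block, 19 and 15 members were called between the cell types in control and in Vav-Etv2 cells. The share of all features called at that setting is not given here, so these counts do not set the members apart. With a replicate block within cell type 27 and 27 were called, where 53.8% and 46.6% of all features were, and 0 members were called for Vav-Etv2 against control.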
